A study of Mus musculus with 6 samples.

Results

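Club cells are the secretory, non-ciliated cells of the mouse bronchiole, and the 9 genes described here encode secretory products, an enzyme and membrane proteins used as their markers. The genes were chosen by name: 10 names were looked up in a count table of 33924 gene names, and 9 had a row, since Plunc is an older name of Bpifa1. Bulk RNA sequencing of total RNA gave 6 libraries, all from FVB/NJ mice, an inbred strain. The tumours came from lungs of mice given the chemical carcinogen urethane (1 g per kg, intraperitoneally; replicates 1, 2 and 4), and the comparison tissue was normal lung with no urethane, saline being the other treatment named (control lung, replicates 1, 2 and 3). Both were harvested at 6 months, and the age of the mice, the way tumour tissue was separated from lung, and whether each library came from its own animal are not stated in the sources used here. Each p-value is thus set against the variation among these 6 libraries, which may be technical in part. The series asks which genes differ between urethane-induced tumours and control lungs.

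Secretoglobins are small secreted proteins that form dimers in the airway lining fluid, and Scgb1a1, the club cell secretory protein, is among the most abundant transcripts of the distal airway. Club cells also metabolise foreign chemicals, with cytochrome P450 enzymes and carbonyl reductase, and can renew the bronchiolar epithelium after injury. The BPI-fold proteins Bpifa1 and Bpifb1 are secreted host defence proteins best known from the nose and the large airways. In bulk tissue, fewer cells of a type and less RNA per cell cannot be told apart.

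Counted reads per library ranged from 48509129 to 62336537 in the tumours and from 38996532 to 59037341 in control lung. Levels are given in CPM, read counts scaled to the size and composition of each library, and 3 reads in a library equalled 0.0456 to 0.0815 CPM. Intervals cover counting error only. Tumour replicate 2 differed from the other 5 libraries in its sex-linked transcripts, with 3360 CPM of Xist against at most 32.9 CPM. Ddx3y and Kdm5d, also sex-linked, had 0.180 and 0.216 CPM there, and at least 87.1 and 37.6 CPM in the other 5. Further differences of tumour replicate 2 from these libraries cannot be told apart from this one. The labels fitted their markers: the 9 markers of AT2 cells (alveolar type 2 cells, which make surfactant) summed to 28858 to 65490 CPM in the tumours and 10046 to 16652 CPM in control lung, and Epcam, an epithelial adhesion molecule, averaged 168 ± 53.6 CPM in the tumours and 30.8 ± 6.33 CPM in control lung (SD, n = 3 each). Control lung held club, ciliated and alveolar markers together.

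Of the 9 club cell genes, 7 fell in the tumours, 1 rose and 1 did not pass the test (quasi-likelihood test of edgeR with p-values adjusted by Benjamini-Hochberg, called under 0.05). Among all 20001 genes tested, 42.0% were called, of which those that fell were 23.8% and those that rose 18.1% of the genes tested. The median log2 fold change (tumour over control) was -4.31 over the 9 genes and 0.01 over all genes tested. Tumour and control values did not overlap for 6 genes that were lower and 1 that was higher, against 29.9% and 26.1% of all genes tested, so 7 of 9 stood apart where 56.0% of all genes did. All 9 genes passed the filter on low counts.

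In each library, the 9 genes summed to 134, 68.6 and 39.9 CPM in tumour replicates 1, 2 and 4, against 16969, 12532 and 10168 CPM in control replicates 1, 2 and 3. Without Bpifa1, the gene that rose, the sums were 38.8, 55.0 and 38.1 CPM in the tumours, against 16969, 12531 and 10168 CPM in control lung. Counted together, the 9 genes took 0.0140%, 0.00613% and 0.00379% of the counted reads of the tumours and 1.60%, 1.40% and 1.09% of those of control lung. The make-up of that sum differed as well. Scgb1a1 supplied 3.22%, 13.9% and 13.0% of the reads of the 9 genes in the tumours, against 88.9%, 80.6% and 83.3% in control lung. Bpifa1 supplied 71.1%, 19.8% and 4.62% in the tumours and at most 0.00679% in control lung. Cbr2 supplied 18.2%, 56.1% and 67.1% in the tumours, against 8.22%, 15.4% and 12.1% in control lung.

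**Figure D1:**
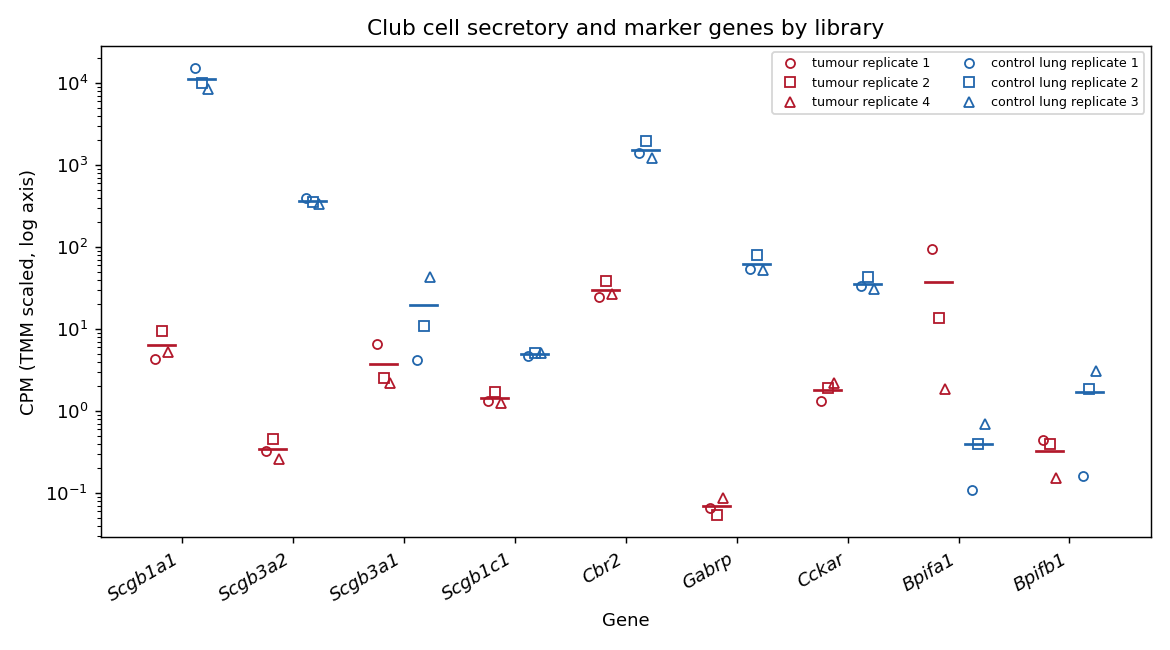
CPM of the 9 genes in each library on a log axis; marks are libraries, with tumours left of control lung for each gene. For 6 genes all tumours lie below all control lungs, Bpifa1 sits higher in all tumours, and the values of Scgb3a1 and Bpifb1 overlap.

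The 3 genes with the deepest loss were a pair of secretoglobins and a receptor subunit. Scgb1a1 (mm9 chr19:9158126-9162448, minus strand, 476 exon bases) had 4.32, 9.52 and 5.19 CPM in tumour replicates 1, 2 and 4, against 15078, 10100 and 8470 CPM in control replicates 1, 2 and 3. The tumour with the most Scgb1a1 was replicate 2, and no tumour came near the lowest control lung. Its log2 fold change was -10.79 ± 0.55 (SE; edgeR adjusted p = 1.29e-05). Only 15 of the 20001 genes tested had a lower log2 fold change. These values rest on 264, 530 and 239 reads in the tumours and on 554962, 664561 and 417103 reads in control lung. The level left was 0.0385% of the control mean in tumour replicate 1 (exact 95% Poisson interval 0.0340% to 0.0434%), 0.0849% in replicate 2 (0.0778% to 0.0924%) and 0.0462% in replicate 4 (0.0406% to 0.0525%). The interval of replicate 2 lay above those of the other two tumours.

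Scgb3a2 (mm9 chr18:43923979-43927047, plus strand, 838 exon bases), a secretoglobin of the distal airway, had 0.327, 0.449 and 0.260 CPM in the tumours, against 400.0, 354 and 331 CPM in control lung. The control lungs differed by 1.21-fold between the highest and the lowest, which made this one of the steadiest of the 9 genes there, and the tumours by 1.72-fold. Its log2 fold change was -10.01 ± 0.27 (SE; edgeR adjusted p = 1.60e-06). The tumour values rest on 20, 25 and 12 reads, and the 0.0904%, 0.124% and 0.0720% of the control mean left in replicates 1, 2 and 4 had overlapping intervals, from 0.0372% to 0.183% in all.

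Gabrp (mm9 chr11:33450781-33478959, minus strand, 3377 exon bases) encodes the pi subunit of the GABA-A receptor, a chloride channel. It had 0.0654, 0.0539 and 0.0868 CPM in the tumours, which are 4, 3 and 4 reads, against 53.4, 80.5 and 52.7 CPM in control lung. All 3 tumours were thus near the level of 3 reads in a library. Its log2 fold change was -9.79 ± 0.33 (SE; edgeR adjusted p = 3.19e-06), and 0.105%, 0.0866% and 0.140% of the control mean was left. The intervals of these percentages, 0.0179% to 0.357% in all, overlapped one another and those of Scgb3a2.

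Cbr2 (mm9 chr11:120590803-120593428, minus strand, 1327 exon bases), a carbonyl reductase abundant in mouse lung, kept more. It had 24.4, 38.5 and 26.8 CPM in the tumours, against 1395, 1936 and 1231 CPM in control lung, a log2 fold change of -5.67 ± 0.31 (SE; edgeR adjusted p = 1.39e-05). What was left came to 1.60%, 2.53% and 1.76% of the control mean. Tumour replicate 2 again stood above the other two. Of the 32-base words in its longest transcript, 18.2% also occur in other genes, most often Gm11771, so reads may be divided between names.

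Cckar (mm9 chr5:54089015-54098943, minus strand, 3681 exon bases), a receptor for the peptide cholecystokinin, had 1.32, 1.89 and 2.19 CPM in the tumours, against 33.1, 43.1 and 30.9 CPM in control lung. Here replicate 4 was the highest tumour. The log2 fold change was -4.31 ± 0.26 (SE; edgeR adjusted p = 1.73e-05), and 3.71%, 5.28% and 6.13% of the control mean was left.

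Scgb1c1 (mm9 chr7:148031464-148032667, plus strand, 436 exon bases), a further secretoglobin, was low in both tissues. It had 1.34, 1.69 and 1.24 CPM in the tumours, against 4.73, 5.03 and 5.10 CPM in control lung. The groups did not overlap, and control lungs differed by no more than 1.08-fold. Its log2 fold change was -1.80 ± 0.26 (SE; edgeR adjusted p = 0.000892), with 27.1%, 34.1% and 25.0% of the control mean left.

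**Figure D2:**
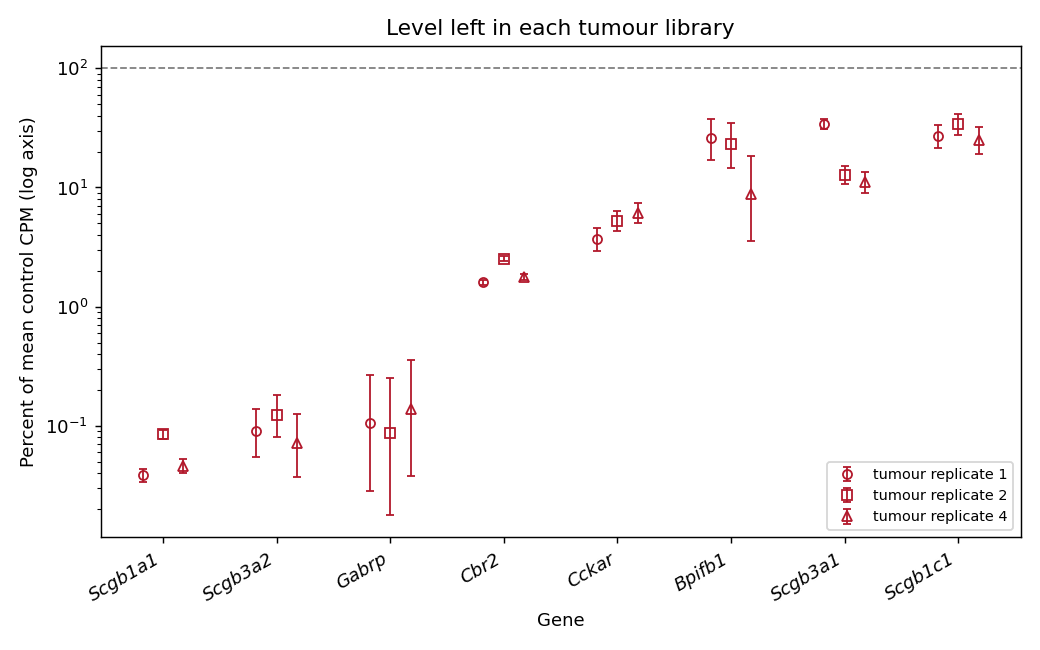
Level in each tumour library as a percentage of the mean of the 3 control lungs, on a log axis; bars are exact 95% Poisson intervals of the tumour reads, and the dashed line is 100%. Scgb1a1, Scgb3a2 and Gabrp lie between 0.0385% and 0.140%, Cbr2 and Cckar between 1.60% and 6.13%, and Scgb1c1 between 25.0% and 34.1%. Scgb3a1 lies between 11.1% and 33.9%, and Bpifb1 between 8.89% and 25.8%. The bars leave out the spread of the control lungs, which the tumours overlapped for Scgb3a1 and Bpifb1. Tumour replicate 1 had 160% and 271% of the lowest control lung for Scgb3a1 and Bpifb1.

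Scgb3a1 (mm9 chr11:49477112-49478620, plus strand, 598 exon bases), a secretoglobin also known from larger airways, gave a call that depended on single libraries. It had 6.62, 2.50 and 2.17 CPM in the tumours, against 4.13, 10.9 and 43.6 CPM in control lung. The groups overlapped, because tumour replicate 1 lay above control replicate 1. The control lungs spanned 10.5-fold, whereas those of Scgb1a1 spanned 1.78-fold. The log2 fold change was -2.37 ± 0.82 (SE; edgeR adjusted p = 0.0484). Without control replicate 3 it was -0.95 (edgeR adjusted p = 0.286), and the call was also lost without control replicate 2 (0.0653), without tumour replicate 2 (0.106) and without tumour replicate 4 (0.124); without tumour replicate 1 the log2 fold change was -3.03 (edgeR adjusted p = 0.0214).

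Bpifb1 (mm9 chr2:154016554-154046105, plus strand, 3617 exon bases) had 0.441, 0.395 and 0.152 CPM in the tumours, against 0.163, 1.85 and 3.11 CPM in control lung. Control replicate 1 lay inside the range of the tumours. Its log2 fold change of -2.36 ± 0.88 (SE) did not pass the test (edgeR adjusted p = 0.0608). It passed without control replicate 1, at -2.88 (edgeR adjusted p = 0.00639), and was -1.57 without control replicate 3 (0.248). Values of Scgb3a1, Bpifa1 and Bpifb1 were all lowest in control replicate 1 and highest in control replicate 3, an order that Scgb1a1 and Scgb3a2 ran opposite to.

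Bpifa1 (mm9 chr2:153968616-153974955, plus strand, 1545 exon bases), whose gene ends 41599 bases before the start of Bpifb1, went the other way. It had 95.3, 13.6 and 1.84 CPM in tumour replicates 1, 2 and 4, against 0.109, 0.395 and 0.690 CPM in control replicates 1, 2 and 3. All tumours lay above all control lungs, and the tumours spanned 51.6-fold among themselves. The reads behind these values were 5826, 758 and 85 in the tumours and 4, 26 and 34 in control lung. The log2 fold change was 6.48 ± 1.42 (SE; edgeR adjusted p = 0.00708). Without tumour replicate 1 it was 4.27 (edgeR adjusted p = 0.00329), without control replicate 3 it was 7.10 (0.0365), and limma-voom gave 5.40 with an adjusted p = 0.0998, which is no call.

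Promoter sequence from RefSeq's GRCm38.p6 table was read for 6 of the 9 genes. None was read for Scgb1a1, Scgb3a2 and Cckar. The windows of 4 genes are printed to set genes with different outcomes side by side: Gabrp and Cbr2, which fell, Scgb1c1, which fell least of the genes without overlap, and Bpifa1, which rose. Each is the 250 bases before the annotated start, 5′ to 3′ on the gene's own strand, at chr11:33578958-33579207 (minus) for Gabrp, chr11:120732022-120732271 (minus) for Cbr2, chr7:140845315-140845564 (plus) for Scgb1c1 and chr2:154142630-154142879 (plus) for Bpifa1. Capitals mark the letters CTCAAG, a core of NKX2-1 sites, on either strand.
Gabrp: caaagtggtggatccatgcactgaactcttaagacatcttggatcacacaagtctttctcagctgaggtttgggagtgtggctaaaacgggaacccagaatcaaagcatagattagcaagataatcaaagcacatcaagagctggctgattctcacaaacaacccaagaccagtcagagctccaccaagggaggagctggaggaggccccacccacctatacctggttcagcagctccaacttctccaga
Cbr2: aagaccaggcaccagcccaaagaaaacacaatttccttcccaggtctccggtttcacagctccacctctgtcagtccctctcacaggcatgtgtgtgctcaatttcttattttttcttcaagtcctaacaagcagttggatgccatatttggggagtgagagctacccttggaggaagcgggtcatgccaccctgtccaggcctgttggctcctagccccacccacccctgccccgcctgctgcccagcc
Scgb1c1: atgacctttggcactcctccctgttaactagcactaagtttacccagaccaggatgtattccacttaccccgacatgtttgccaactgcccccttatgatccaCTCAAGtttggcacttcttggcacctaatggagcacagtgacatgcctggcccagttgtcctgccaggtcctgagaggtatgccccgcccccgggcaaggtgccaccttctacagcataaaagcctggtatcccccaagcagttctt
Bpifa1: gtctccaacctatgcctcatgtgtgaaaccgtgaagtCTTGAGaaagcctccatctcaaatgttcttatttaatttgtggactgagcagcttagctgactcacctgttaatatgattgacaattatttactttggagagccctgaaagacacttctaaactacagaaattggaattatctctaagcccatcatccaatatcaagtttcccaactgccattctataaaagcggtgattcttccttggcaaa

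The CTCAAG letters occurred once each in Bpifa1, Scgb1c1 and Scgb3a1. From the annotated start they lay at bases -213 to -208, -147 to -142 and -172 to -167, in that order. In Bpifa1 and Scgb3a1 they read on the opposite strand. No GENCODE M21 transcript of Scgb1c1 or Scgb3a1 begins at that start, so their positions hold for the RefSeq start only. The letters occur in 13.3% of all 32851 promoter windows of this length. Other letters searched on both strands were TGTTTAC (FOXA), TTGCNNAA (C/EBP) and ATTGTT (SOX), which 3.17%, 9.56% and 9.42% of all windows hold. None of these 3 was in the windows of the 6 genes. These are matches of letters and show no binding.

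Levels of different genes were compared per kilobase of exon. In control lung Scgb1a1 led with 23564 ± 7232 CPM per kb, followed by Cbr2 with 1146 ± 278 and Scgb3a2 with 432 ± 42.0 (SD, n = 3), and the ranges of these 3 did not overlap. Scgb3a1, at 32.6 ± 35.3 CPM per kb, and Gabrp, at 18.4 ± 4.69, overlapped, as did Scgb1c1 with Cckar and Bpifb1 with Bpifa1. In the tumours the order was another. Bpifa1 had the highest mean, 23.9 ± 32.9 CPM per kb, next to Cbr2 at 22.5 ± 5.70, Scgb1a1 at 13.3 ± 5.86, Scgb3a1 at 6.29 ± 4.15 and Scgb1c1 at 3.26 ± 0.54 (SD, n = 3), and each of these overlapped the next. The lead of Bpifa1 came from tumour replicate 1, at 61.7 CPM per kb; it had 8.81 and 1.19 CPM per kb in replicates 2 and 4, and without replicate 1 its mean lay below those of Cbr2 at 24.6 and Scgb1a1 at 15.4. Cckar and Scgb3a2 overlapped at 0.489 ± 0.119 and 0.412 ± 0.114 CPM per kb, and Gabrp was last at 0.0203 ± 0.0049.

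Whether the genes kept their proportion to Scgb1a1 was asked within each library, as the log2 ratio of CPM plus 0.1. Because Scgb1a1 had the lowest log2 fold change of the 9, the mean ratio in the tumours minus that in control lung had to be above 0 for the 8 other genes, and only its size is described. It was 1.12 for Scgb3a2, 2.30 for Gabrp, 5.14 for Cbr2, 6.56 for Cckar, 8.91 for Scgb3a1, 9.07 for Scgb1c1, 9.27 for Bpifb1 and 15.78 for Bpifa1. With 3 against 3 libraries a two-sided exact permutation test cannot go below p = 0.1, so no difference could pass 0.05. For Gabrp the difference was 1.21 with 0.01 CPM added in place of 0.1 and 4.74 with 1 CPM, and at 0.01 CPM the groups overlapped, with a log2 ratio of -7.22 in tumour replicate 2 and of -6.97 in control replicate 2. For Scgb3a2 the difference was 0.81 with 0.01 CPM and 2.53 with 1 CPM.

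**Figure D3:**
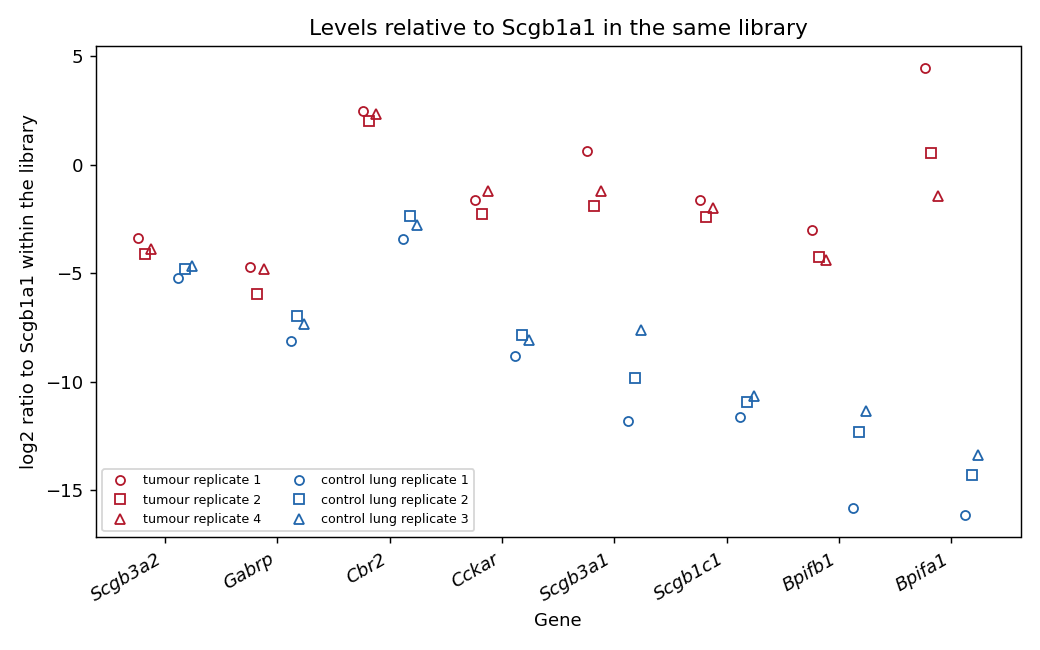
The log2 ratio of each gene's CPM plus 0.1 to that of Scgb1a1 in the same library, not corrected for gene length; marks are libraries, tumours left of control lung. With 0.1 CPM added the tumour marks lie above the control marks for the 8 genes, by a mean of 1.12 for Scgb3a2 and of 15.78 for Bpifa1.

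Other genes known from club cells were read as a list of 18. Of 17 tested, 14 fell, none rose and 3 did not pass the test, with a median log2 fold change of -5.13. Pon1, an esterase, averaged 0.559 ± 0.143 CPM in the tumours and 53.1 ± 6.92 CPM in control lung (log2 fold change -6.58 ± 0.26 SE, edgeR adjusted p = 4.33e-06). Aldh1a1, a retinaldehyde dehydrogenase, averaged 16.4 ± 2.90 CPM in the tumours and 716 ± 111 CPM in control lung (-5.45 ± 0.24, edgeR adjusted p = 6.87e-06). The P450 enzyme gene Cyp2a5 had no read in any tumour and 5249 reads in control lung, at least 1877-fold lower against 3 reads over the tumours, and at least 1173-fold lower without tumour replicate 1. Of its 32-base words 57.5% occur also in other genes, most often Cyp2a4, so the reads may be divided. Muc5b, Gsta4 and Retnla did not pass. Muc5b, a gel-forming mucin that also belongs to the goblet cell list, had 73.2, 26.4 and 26.7 CPM in the tumours, against 13.7, 37.7 and 64.8 CPM in control lung; Retnla, a secreted resistin-like protein, had 0.981, 24.2 and 1.78 CPM in the tumours, against 21.1, 8.40 and 5.54 CPM in control lung, and without tumour replicate 2 it passed at -3.08 (edgeR adjusted p = 0.00584).

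Markers of the other airway cells were read beside these results. All 14 ciliated cell markers fell, with a median log2 fold change of -7.07, and they summed to 17.6, 34.0 and 29.3 CPM in the tumours, against 1192, 1412 and 1264 CPM in control lung. Sec14l3 gave most of these sums, with 9.94, 27.9 and 23.0 CPM in the tumours, against 924, 992 and 934 CPM in control lung. Dnahc5, a dynein heavy chain of the cilium, averaged 0.0986 ± 0.0405 CPM in the tumours and 76.2 ± 27.7 CPM in control lung (-9.57 ± 0.44 SE, edgeR adjusted p = 9.73e-06). Ccdc153, a further ciliated cell marker, had 1 read in all tumours together and 2343 in control lung, a ratio of 2514 (exact 95% interval 451 to 99339), and without tumour replicate 4 it had none and was at least 601-fold lower. Markers of alveolar type 1 cells fell for 6 of 8 and rose for 1, with a median of -2.53. The 1 that rose, Aqp5, a water channel (0.82 ± 0.27 SE, edgeR adjusted p = 0.0397), lost the call without tumour replicate 2 (0.108) and without control replicate 1, 2 or 3 (0.0733, 0.138 and 0.0929). AT2 markers rose for 8 of 9, with a median of 1.83. The part of airway cell content in the fall of the club cell genes was not tested.

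Goblet cell markers were mixed: of 8 tested, 3 rose, 2 fell and 3 did not pass, with a median of -0.31. Foxa3, a forkhead factor, had 8.34, 4.80 and 5.51 CPM in the tumours, against 0.0543, 0.106 and 0.122 CPM in control lung (5.97 ± 0.43 SE, edgeR adjusted p = 3.39e-05). Muc5ac, a gel-forming mucin, averaged 10.9 ± 2.88 CPM in the tumours and 1.41 ± 0.569 CPM in control lung (2.94 ± 0.37, edgeR adjusted p = 0.000419). Tff2, a trefoil peptide, fell (edgeR adjusted p = 0.00162), with 2 reads in all tumours and 204 in control lung, 109-fold lower (exact 95% interval 29.9 to 910). Without tumour replicate 2 it was 72.0-fold lower, and without tumour replicate 1, which held both tumour reads, at least 45.6-fold lower. Agr2, a protein disulphide isomerase of mucus-making cells, fell by 3.09 ± 0.74 on the log2 scale (edgeR adjusted p = 0.0102), with -4.26 once tumour replicate 1 was left out. Few reads lie behind this: 6, 2 and 0 in the tumours, against 17, 22 and 24 in control lung. At a threshold of 0.01 the Agr2 call was lost. With genes kept only at 1 CPM or more in at least 3 libraries, 0 goblet markers were called lower. The goblet list summed to 104, 43.9 and 45.1 CPM in the tumours, against 18.4, 45.5 and 74.4 CPM in control lung, so the groups overlapped. Muc5b gave most of these sums, and without it they were 30.6, 17.4 and 18.4 CPM in the tumours, against 4.67, 7.81 and 9.61 CPM in control lung, with no overlap.

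Of 4 basal cell markers tested, 2 fell, and Krt5 and Krt14, which define these cells, had at most 8 reads in any library. Of 6 neuroendocrine markers tested, 4 fell and 1 rose.

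Genes of the families to which the members belong were read in the same way. In the BPI-fold family 2 of 14 genes were tested, of which Lbp, the lipopolysaccharide-binding protein, rose (2.81 ± 0.34 SE, edgeR adjusted p = 0.000378) and Bpifb5 did not pass (-0.43, edgeR adjusted p = 0.782), though without tumour replicate 1 it was -2.72 (0.0359). Bpifb2, Bpifb3 and Bpifb6 had 81, 49 and 13 reads in tumour replicate 1 and none in the other 5 libraries. Of 4 GABA-A receptor subunit genes tested, 3 fell. Gabra4 had no read in the tumours and 161 reads in control lung, at least 57.6-fold lower, and at least 36.0-fold without tumour replicate 1. Cckbr, the second cholecystokinin receptor, had no read in the tumours and 47 in control lung, at least 16.8-fold lower, or 10.5-fold without tumour replicate 1, and the ligand genes Cck and Gast had none in any library. Of the other carbonyl reductase genes 2 of 4 rose. Cbr1 averaged 24.8 ± 2.92 CPM in the tumours and 13.0 ± 0.858 CPM in control lung (0.93 ± 0.16 SE, edgeR adjusted p = 0.00216). Cbr3 rose by 1.06 ± 0.36 on the log2 scale (edgeR adjusted p = 0.0448) and lost the call without tumour replicate 1 (0.0683) or any of control replicates 1, 2 and 3 (0.0988, 0.0795 and 0.146).

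Of 15 transcription factors and Notch genes known from airway epithelium, 8 rose, 3 fell and 4 did not pass, with a median of 0.98. Nkx2-1, the lung lineage factor, averaged 115 ± 29.3 CPM in the tumours and 47.6 ± 9.01 CPM in control lung (1.28 ± 0.22 SE, edgeR adjusted p = 0.00233). Cebpa, a C/EBP factor, averaged 317 ± 105 CPM in the tumours and 41.8 ± 6.49 CPM in control lung (2.92 ± 0.26, edgeR adjusted p = 8.16e-05). Ehf and Grhl2, epithelial factors, rose by 2.40 ± 0.16 (edgeR adjusted p = 2.68e-05) and 1.78 ± 0.15 (6.71e-05) on the log2 scale. Foxa1 and Foxa2, forkhead factors, rose by 0.98 ± 0.20 (edgeR adjusted p = 0.00532) and 1.06 ± 0.16 (0.00122).

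Sox2, a factor of conducting airway epithelium, was among the 3 that fell. It had 0, 0.108 and 0 CPM in the tumours, against 3.94, 2.92 and 2.68 CPM in control lung. All 6 tumour reads came from replicate 2. Scgb1a1 and Cbr2 of this tumour stood above those of the other tumours beyond counting error. Its Scgb3a2, Scgb1c1, Cckar and Gabrp did not. Scgb3a1 and Bpifa1 of tumour replicate 2 lay below those of tumour replicate 1 beyond counting error, and Bpifb1 lay below within it. Differences of tumour replicate 2 cannot be told apart from that in its sex-linked transcripts. Sox2 was 83.9-fold lower in the tumours (exact 95% interval 38.2 to 230, edgeR adjusted p = 0.000660 with all libraries). It was 52.4-fold lower without tumour replicate 1, and at least 110-fold lower without tumour replicate 2.

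**Figure D4:**
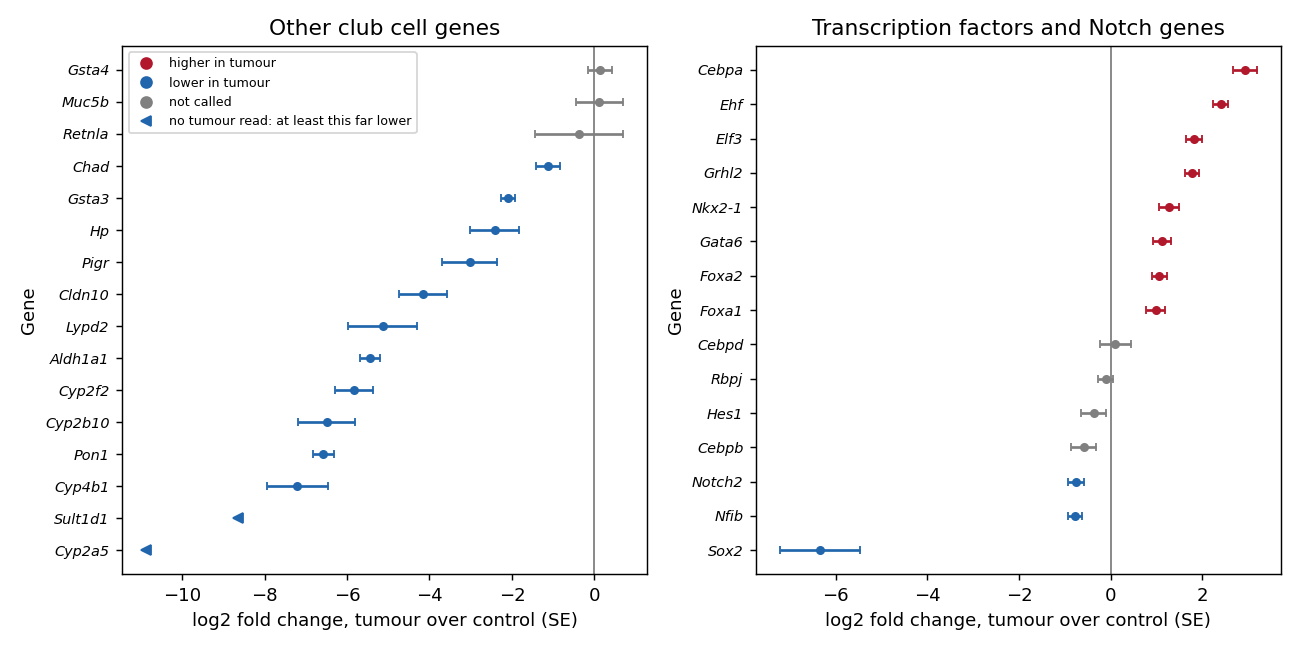
Log2 fold change (tumour over control) of tested genes of the club cell list (1 not shown) and of the tested genes of the transcription factor and Notch list; bars are SE, colours give the call, and triangles are lower limits of the fall where no tumour read was counted. The club cell list lies mostly left of 0, whereas the 8 factors that rose lie right of 0 and Sox2 is farthest left of the 15.

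The genes whose profiles over the 6 libraries were nearest to Scgb1a1 were named by Euclidean distance of log2 CPM, each centred on the control mean. They were Cyp2a5 at a distance of 2.48, Ccdc108 (a cilium gene) at 2.86, Actc1 (cardiac actin) at 3.27, and the cilium genes Dnahc5 at 3.29 and Hydin at 3.53. Ccdc108 had 0, 0 and 0.0434 CPM in the tumours, against 25.4, 43.5 and 51.7 CPM in control lung. Nearness here means a near-total loss in all 3 tumours. It is a description over 6 libraries, not a test.

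The nearest to Bpifa1 were Syt8 (a synaptotagmin) at 2.21, Pthlh (parathyroid hormone-like hormone) at 2.63, Lce3f (a cornified envelope gene) at 2.80, Fut2 (a fucosyltransferase of secreted glycans) at 3.03 and Hnf4a (a nuclear receptor of gut and liver) at 3.22. Pthlh had 36.4, 7.47 and 2.37 CPM in the tumours, against 0.380, 0.334 and 0.244 CPM in control lung. Fut2 had 72.4, 25.0 and 16.2 CPM in the tumours, against 1.01, 0.730 and 1.38 CPM in control lung. The 5 were picked for nearness to Bpifa1, so a shared peak largely follows from the choice. All were highest in tumour replicate 1. Without it the log2 fold change was 3.98 in place of 5.59 for Pthlh and 4.35 in place of 5.20 for Fut2.

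Hnf4a had 1052, 79 and 65 reads in the tumours and 1 read in all control lungs, a ratio of 1115 (exact 95% interval 200 to 44063), or 215 without tumour replicate 1. Lce3f had 274, 51 and 31 reads in the tumours and none in control lung, at least 111-fold higher, or 40.8-fold without tumour replicate 1. Of its 32-base words 49.7% occur also in other genes, most often Lce3e. Syt8 had 390, 101 and 38 reads in the tumours and 3 in all control lungs, a ratio of 164 (exact 95% interval 55.9 to 799), or 69.1 without tumour replicate 1 and 333 without control replicate 3.

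Genes of upper airway glands were read because Bpifa1 is made there. Dcpp1 and Dcpp2, secreted proteins of glands, had 75.4 and 52.4 CPM in tumour replicate 1 and at most 0.216 CPM in any other library. They did not pass the filter and were not tested. Of their 32-base words 55.6% and 54.4% occur also in other genes, most often Dcpp2 and Dcpp3. Lcn2, a siderophore-binding protein, had 355, 1099 and 494 CPM in the tumours, against 33.5, 28.0 and 22.7 CPM in control lung (4.53 ± 0.45 SE, edgeR adjusted p = 0.000137, and 3.93 without tumour replicate 2). Ltf, lactoferrin, fell to 0.552 ± 0.416 CPM in the tumours, against 3.67 ± 1.86 CPM in control lung (-2.72 ± 0.63, edgeR adjusted p = 0.00921, and -3.51 without tumour replicate 2). Azgp1 had at most 15 reads in any library, and Bpifa2, listed as Bpifa2e, had none in the tumours and 10 in control lung. The part of gland cells in the level of Bpifa1 in tumour replicate 1 was not tested.

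**Figure D5:**
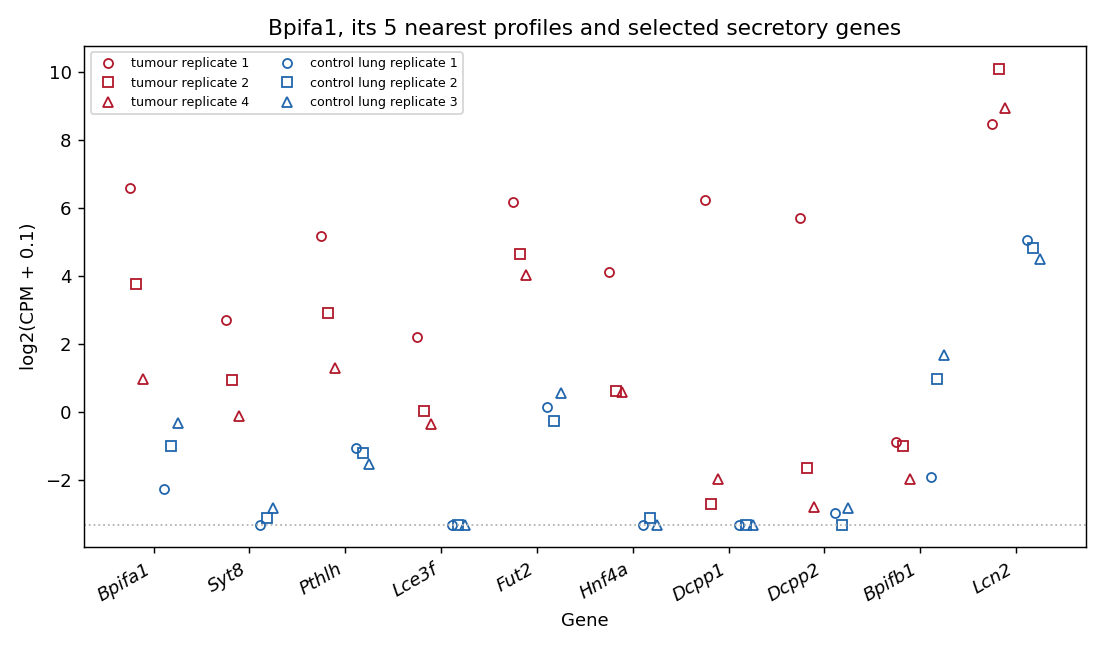
Level as log2(CPM + 0.1) of Bpifa1, its 5 nearest profiles and 4 secretory genes shown for contrast after their values were seen (Dcpp1, Dcpp2, Bpifb1, Lcn2); marks are libraries, tumours left of control lung. Tumour replicate 1 is highest for Bpifa1, its 5 neighbours (picked by likeness to Bpifa1) and the Dcpp genes, whereas replicate 2 is highest for Lcn2.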

How the data were processed

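Total RNA of 3 urethane-induced lung tumours and 3 control lungs was extracted with Trizol and a column and sequenced with standard Illumina libraries, per the labels' protocols. Raw counts for each gene name were deposited, which the authors made with featureCounts 1.6.5 over exons of GENCODE vM1, per the file headers. Reads overlapping several names were counted for each, and no strand setting was given. No exon base of the 9 genes lies in exons of another name in the table. The submitters' processing notes name STAR, featureCounts, limma, edgeR and R 3.6.0 and the builds GRCm38 and mm9. The table's coordinates are those of the mm9-era annotation and are given as mm9; RefSeq promoters are on GRCm38.p6.

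Counts as deposited were tested with edgeR 4.0.16 in R 4.3.3: genes were kept by filterByExpr at a minimum count of 10, libraries were scaled by TMM, tumour was set against control with the quasi-likelihood F test and no covariate, and p-values were adjusted by Benjamini-Hochberg over 20001 genes and called at 0.05. CPM are after TMM scaling; CPM per kb used the deposited exon length. The SE of a log2 fold change was back-calculated from the F statistic, as the absolute log2 fold change over the square root of F. It thus restates the test and is not a separate estimate. The log2 CPM of the profile distances had a prior count of 2. Where a group had 0 reads, a fold is a bound against 3 reads over the group; with few reads, a pooled ratio has an exact interval. Shared sequence was measured on GENCODE M21 transcripts. The test was checked on simulated counts. Totals of 38996532 to 62336537 reads put 3 reads at 0.0456 to 0.0815 CPM in a library.

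The 9 genes, the gene lists and the rule for named genes (all members, the 2 genes of each list with the smallest p, further list genes, and the 5 nearest profiles to Scgb1a1 and to Bpifa1) were chosen with earlier results of these data known, and the 4 motifs were picked by hand. A gene of the club cell list that the rule takes is counted with its list but is not reported here. Alternatives were DESeq2 1.42.0, limma-voom (limma 3.58.1), other scalings, filters and pseudocounts, a threshold of 0.01, each library left out, and a replicate block.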

Additional observations from a re-analysis of the deposited data

How the results depend on the processing

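Under 16 alternatives the log2 fold changes of Scgb1a1, Scgb3a2, Cbr2, Gabrp and Cckar kept their direction and their call, and no result reversed. The count of genes of the 9 that fell was 5 to 8 and stayed within 1.5 times of 7, with 6 to 8 when a library was left out. The count that rose was 0 under limma-voom, where Bpifa1 had 5.40 with an adjusted p of 0.0998, and 1 under the others. Bpifa1 had adjusted p values of 0.00106 to 0.0379 with each library left out. Scgb3a1 lost its call under 8 of 16 alternatives, among them limma-voom (adjusted p = 0.108) and mitochondrial genes left out (0.0516). Bpifb1 gained a call with library totals alone (edgeR adjusted p = 0.0443), with no filter on low counts (0.0448), with DESeq2 (0.0130) and without control replicate 1, and was not tested under the filter of 1 CPM in 3 libraries. Over all genes 8397 were called, and 6421 to 9436 with a library left out, fewest without control replicate 3. With library totals alone the median log2 fold change shifted by -0.12, and 33.6% of calls were higher, against 43.2%. DESeq2 gave 10140 genes no adjusted p, none of them among the 9. The 14 falls among the other club cell genes were 12 to 15 and the 14 among ciliated markers were 14 under the 16 alternatives. The Aqp5 rise among type 1 cell markers was also lost with library totals alone, with the replicate block and at the threshold of 0.01.

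Replicate numbers 1 and 2 occur in both groups, and whether they pair the libraries is not known here. Deviations from the group mean correlated across genes at -0.18 and -0.01 for same-numbered libraries. For the other pairs they correlated at -0.12 to 0.18. Centred within groups of 3, these values cannot settle pairing. With the replicate block, which leaves 1 residual degree of freedom, 3641 genes were called, and Scgb1c1 (edgeR adjusted p = 0.0677) and Scgb3a1 (0.574) lost their calls. Under the block AT2 markers higher were 2 in place of 8, transcription factors and Notch genes 5 higher and 1 lower in place of 8 and 3, neuroendocrine markers 2 lower and none higher in place of 4 and 1, GABA-A receptor genes 2 lower in place of 3, goblet markers 2 higher and 1 lower in place of 3 and 2, carbonyl reductases 0 higher in place of 2, and Cckbr lost its call.

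Depth limited Gabrp, with 3 or 4 reads in each tumour, and the genes with no read in a group, whose folds are bounds.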
